A study of Mus musculus with 8 samples.

Results

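The genes described here code for the collagens, laminins, lysyl oxidases and tissue inhibitors of metalloproteinases, together with genes that mark hepatic stellate cells or accompany their activation. They were chosen by gene symbol, as every collagen chain (Col, number, a, number), Timp1 to Timp4, Lox and the Lox-like genes, the laminin chains, and Acta2, Des, Lrat, Pdgfrb, Tgfb1, Ccn2 (also called Ctgf), Dcn, Lum and Reln. The rule found 73 of the 55487 genes listed, of which 44 were collagens. Counts were high enough to test 50 of the 73 genes, among 13400 genes tested in all.

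Collagens are triple helical proteins that carry the tensile strength of the extracellular matrix, and laminins are the cross-shaped proteins of basement membranes. In the liver, stellate cells lie between hepatocytes and sinusoidal endothelium, store retinyl esters, and on activation acquire contractile filaments and secrete fibrillar collagen. Lysyl oxidases cross-link the secreted collagen, and the tissue inhibitors of metalloproteinases slow its breakdown, which is why these genes are followed together in studies of liver fibrosis.

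The study examined the melanocortin 1 receptor (MC1R), a receptor for melanocyte-stimulating hormone, in the liver. Liver samples of 4 Mc1r LKO mice were compared with those of 4 Control mice by RNA sequencing, each library coming from 1 liver. Mc1r LKO mice carry a floxed Mc1r allele (Mc1r fl/fl) and an Alb-Cre transgene, in which the albumin promoter drives Cre recombinase in hepatocytes, while Control mice were age-matched Mc1r fl/fl mice. All were males that entered the experiment at 8 weeks of age, ate a Western diet rich in cholesterol over the following 12 weeks, and were fasted for 4 hours before the liver was taken. No chow-fed livers were analysed here, so the effect of the diet itself on these genes was not measured. The transgene does not target stellate cells, and in bulk liver tissue fewer stellate cells and less RNA per stellate cell cannot be told apart.

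Total counts were between 10773151 and 24763375 per mouse, and 0 counts in a mouse allow a level of up to 3 counts, which was 0.121 to 0.278 as counts per 1e+06 (CPM). The targeted gene had 0 counts in all 8 mice, so the genotype labels could not be checked by it. The 9 hepatocyte markers summed to 78880 to 96920 CPM in Control and 84980 to 113900 CPM in Mc1r LKO mice. Alb alone made up 51820 to 64690 CPM and 56490 to 74790 CPM of these sums. The 6 stellate cell identity genes were all detected in every mouse. Mc1r LKO mouse 182 stood apart, with the lowest sums of the sinusoidal endothelial and macrophage markers and the highest sum of the hepatocyte markers. Its sum of the cholangiocyte markers was also the lowest, but Spp1 made up most of that sum in the other mice.

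Levels of different genes were compared as CPM per kb of exon, since longer transcripts yield more reads. Col18a1, which codes for the basement membrane collagen whose end fragment is endostatin, had the highest level on this scale, at 131 CPM per kb averaged over the 8 mice. Dcn, the collagen-binding proteoglycan decorin, followed at 27.9 CPM per kb, and Col5a3 and Col14a1 were next at 11.7 and 11.5 CPM per kb. The classical fibrillar collagens were lower, with Col3a1 at 8.28, Col1a1 at 4.63 and Col1a2 at 2.83 CPM per kb. The length used joins all annotated exons of a gene, and was 6563 bases for Col1a1 and 12426 bases for Col1a2. Before this scaling Col1a2 had the higher CPM of the pair in every mouse, so their order here depends on the annotation. Lrat, the retinyl ester synthase of stellate cells, reached 4.83 CPM per kb. At the other end, Col2a1, Col9a1, Col10a1 and Timp4 had 0 counts in every mouse, and another 19 collagens had too few counts to be tested.

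**Figure D1:**
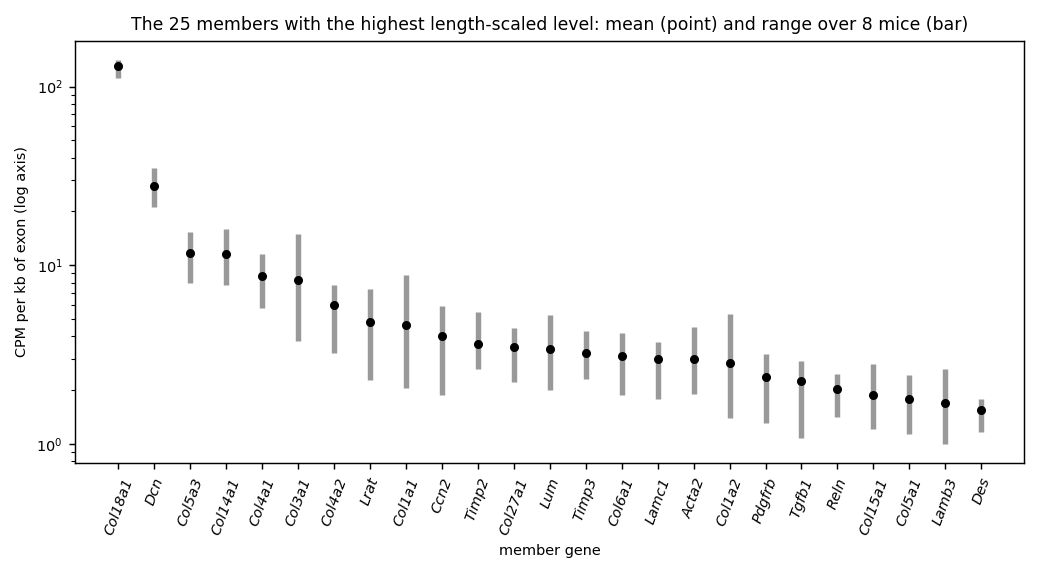
Mean level of the 25 highest genes in CPM per kb of exon on a log axis, with bars spanning the lowest to the highest of the 8 mice. Col18a1 stands above all other genes with a short bar, while the bars of Col1a1, Col1a2 and Col3a1 are long.

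Genes were called where the p-value was under 0.05 and the log2 fold change was 0.25 or more in either direction. With p-values adjusted over all genes, edgeR's quasi-likelihood test called 0 genes of the group, whose smallest adjusted p was 0.734, and the share of all genes that did so was 0%. The same count was 0 with DESeq2 and with limma-voom, although DESeq2 called 13 genes among all those tested. At an unadjusted p under 0.05 and that fold change, edgeR called 1 gene higher in Mc1r LKO livers (Ccn2), against a background of 2.64% of all genes, and 1 gene lower (Col5a3), against a background of 2.66%. These are 1 and 1 of 50 genes, close to the background shares. In none of the 50 genes did all Mc1r LKO mice lie above or all lie below all Control mice, against backgrounds of 2.63% and 1.54% of all genes. The median log2 fold change of the 50 genes was -0.10, with 12 genes higher and 38 lower, while the median of all genes tested was -0.01, with 6412 higher and 6988 lower.

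**Figure D2:**
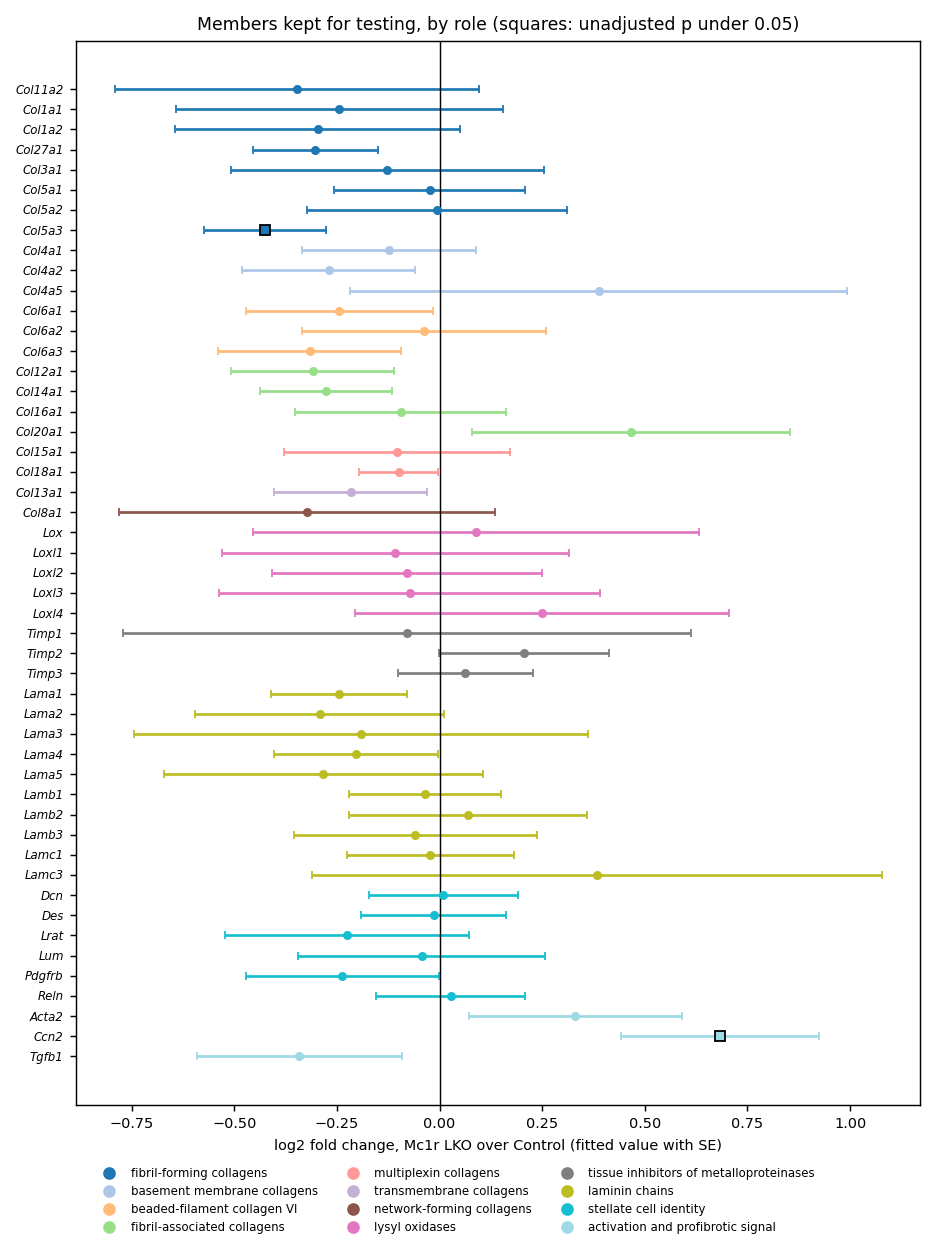
Fitted log2 fold change of Mc1r LKO over Control livers (horizontal axis, points with SE bars) for 49 of the 50 genes tested, coloured by role. Most points lie a little to the left of 0 with bars that cross it, and the squares mark Ccn2 at 0.68 and Col5a3 at -0.43.

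Among the collagens, 20 of the 22 tested were lower in Mc1r LKO livers and 2 were higher, with a median log2 fold change of -0.23, against 6988 lower of all 13400 genes tested. Several collagens varied together from mouse to mouse (described further on), so these signs are not separate observations. The size of the collagen shift depended on single mice. Without Control mouse 193, 12 of 23 collagens were lower and 11 higher, with a median of -0.08, and without Mc1r LKO mouse 182, 14 of 22 were lower and 8 higher, also with a median of -0.08. Values by mouse are given in the order of Control mice 154, 159, 181 and 193 and Mc1r LKO mice 141, 156, 157 and 182, group values are means with SD over 4 mice, and fold changes are log2 values of Mc1r LKO over Control. Summed over all 44 collagens, the level was 1522, 1450, 1478 and 1724 CPM in the Control mice and 1356, 1429, 1424 and 1358 CPM in the Mc1r LKO mice. All Control sums lay above all Mc1r LKO sums, by 1450 against 1429 CPM at the nearest, which is given as a description with no test. Among single genes, 1.54% of all genes tested lay lower without overlap. The separation depends on the scaling factors of the libraries. By total count alone, Control mouse 181 (factor 0.970) would lie below Mc1r LKO mouse 156 (factor 1.01). Col18a1 made up the larger part of the collagen sum and by itself overlapped between the genotypes. Without Col18a1, the remaining collagens summed to 596, 535, 488 and 748 CPM in the Control mice and 577, 516, 544 and 376 CPM in the Mc1r LKO mice, where the highest sum was that of Control mouse 193 and the lowest that of Mc1r LKO mouse 182. The other 6 mice overlapped between 488 and 596 CPM. The log2 ratio of the group means of the whole collagen sum was -0.15, and the means were 1544 ± 124 CPM in Control and 1392 ± 39.9 CPM in Mc1r LKO livers (SD, n = 4 in each group).

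The fibril-forming collagens build the cross-striated fibrils that accumulate in scar tissue, and 8 of these 11 genes were tested. Col1a1 (chr11:94936224-94953042, GRCm38), which codes for the main chain of type I collagen, measured 32.3, 27.1, 13.8 and 58.2 CPM in the Control mice and 34.4, 32.1, 31.6 and 13.5 CPM in the Mc1r LKO mice. Both genotypes reached from about the same lowest value upward, and Control mouse 193 lay above the rest. The means were 32.8 ± 18.6 CPM in Control and 27.9 ± 9.67 CPM in Mc1r LKO livers, and the log2 fold change was -0.24 (SE 0.40, edgeR p = 0.553, exact permutation p = 0.714). The 95% interval of this log2 fold change, -1.13 to 0.64, corresponds to folds of 0.457 to 1.56. Col1a2 (chr6:4504814-4541544), the partner chain of the type I heterotrimer, measured 36.9, 33.1, 19.0 and 66.0 CPM in the Control mice and 37.6, 35.5, 36.1 and 17.4 CPM in the Mc1r LKO mice. The fitted log2 fold change was -0.30 (SE 0.35, edgeR p = 0.413, exact permutation p = 0.686), and the groups overlapped almost fully. Col3a1 (chr1:45311538-45349706), the type III chain that is laid down early in repair, measured 85.0, 60.1, 46.4 and 147 CPM in the Control mice and 106, 72.6, 96.1 and 36.8 CPM in the Mc1r LKO mice. Here too Control mouse 193 was the highest and Mc1r LKO mouse 182 the lowest, a range of 4.00-fold, and the log2 fold change was -0.13 (SE 0.38, edgeR p = 0.745, exact permutation p = 0.829). Col3a1 shares 141 exonic bases with the overlapping gene Gm47302, so part of its reads may have been left uncounted.

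Type V collagen sits in the core of type I fibrils and limits their width. The chain Col5a3 (chr9:20770050-20815067) was the only collagen past the unadjusted threshold. It measured 90.9, 105, 102 and 68.9 CPM in the Control mice and 53.9, 73.6, 68.9 and 75.8 CPM in the Mc1r LKO mice. Of the Control mice 3 lay above all Mc1r LKO mice, while Control mouse 193 lay within the Mc1r LKO range. The means were 91.5 ± 16.2 CPM in Control and 68.0 ± 9.85 CPM in Mc1r LKO livers, with a log2 fold change of -0.43 (SE 0.15, edgeR p = 0.0170, exact permutation p = 0.0857) and a 95% interval of -0.76 to -0.09. The smallest two-sided p that an exact permutation test of 4 against 4 mice allows is 0.0286. The call was lost without Control mouse 159 (log2 fold change -0.35) and without Mc1r LKO mouse 141 (log2 fold change -0.32). The 2 other type V chains did not pass the threshold. Col5a1 was 15.3 ± 3.90 CPM in Control and 15.2 ± 4.31 CPM in Mc1r LKO livers with a log2 fold change of -0.02 (SE 0.23, edgeR p = 0.919, exact permutation p = 0.971), and Col5a2 (chr1:45374321-45503282) measured 4.68, 4.65, 4.48 and 10.0 CPM in the Control mice and 8.57, 4.16, 6.34 and 4.91 CPM in the Mc1r LKO mice. Control mouse 193 alone was set apart among the Control mice for Col5a2, and its log2 fold change was -0.01 (SE 0.32, edgeR p = 0.982, exact permutation p = 1.00). Col27a1, a fibrillar collagen best known from cartilage, was 49.8 ± 6.85 CPM in Control and 40.4 ± 7.69 CPM in Mc1r LKO livers with a log2 fold change of -0.30 (SE 0.15, edgeR p = 0.0755, exact permutation p = 0.143). It passed the unadjusted threshold only when counts were scaled by library size alone (log2 fold change -0.34). Col11a2 had few counts, and its log2 fold change of -0.35 had an SE of 0.44. The untested Col24a1 and Col11a1 had at most 13 counts in a mouse.

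**Figure D3:**
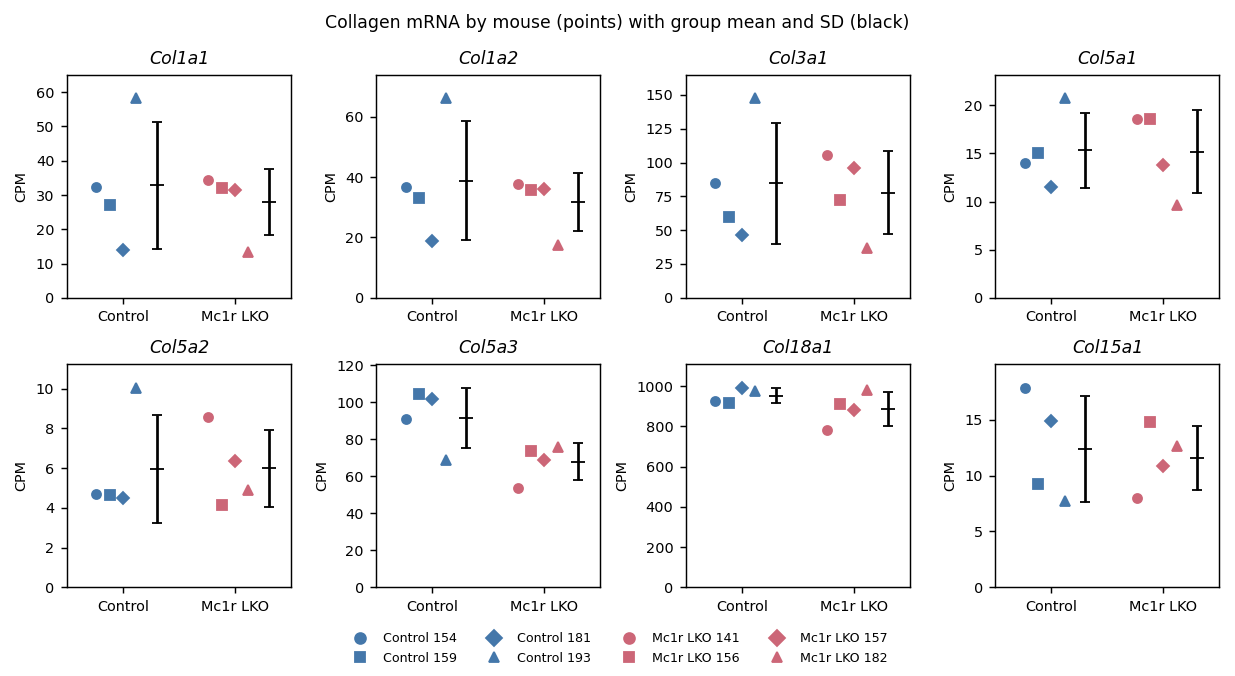
CPM of 8 collagens in each of the 4 Control (blue) and 4 Mc1r LKO (red) livers, with the group mean and SD in black. Control mouse 193 (blue triangle) is the highest for Col1a1, Col1a2, Col3a1, Col5a1 and Col5a2 and the lowest Control mouse for Col5a3, and Col18a1 hardly varies.

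Promoters of a pair of these genes are shown because Col3a1 followed Col1a1 from mouse to mouse (described further on) and Col5a3 did not. The sequences are the 250 bases upstream of the RefSeq start (GRCm38.p6), 5′ to 3′ on the strand of the gene, at chr1:45311288-45311537 (plus strand) for Col3a1 and chr9:20815068-20815317 (minus strand) for Col5a3. Capitals mark matches, on either strand, to 4 short motifs that do not overlap each other here. These are the promoter element TATAAA, the element CCAAT of factor NF-Y, the element GGGCGG of SP1-like factors, and CAGAC, a core of SMAD binding sites.
Col3a1: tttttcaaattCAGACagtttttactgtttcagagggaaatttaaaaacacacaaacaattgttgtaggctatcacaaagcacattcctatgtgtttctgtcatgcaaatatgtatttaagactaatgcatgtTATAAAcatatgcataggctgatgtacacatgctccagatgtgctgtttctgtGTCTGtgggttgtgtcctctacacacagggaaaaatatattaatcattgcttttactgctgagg
Col5a3: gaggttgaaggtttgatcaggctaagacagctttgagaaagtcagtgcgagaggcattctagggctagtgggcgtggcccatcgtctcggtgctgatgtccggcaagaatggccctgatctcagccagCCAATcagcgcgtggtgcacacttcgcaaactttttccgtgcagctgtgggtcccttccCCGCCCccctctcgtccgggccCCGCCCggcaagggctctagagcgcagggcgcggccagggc
The Col3a1 window held TATAAA from 117 to 112 bases before the start and CAGAC once on each strand, while the Col5a3 window held CCAAT from 122 to 118 bases before the start and GGGCGG at 2 places on the opposite strand. Among 32851 promoter windows of this length, 12.4% held TATAAA on either strand, while 33.9% held CCAAT, the share with GGGCGG was 32.7% and the share with CAGAC was 42.2%. RefSeq promoters matched 50 of the 73 genes, with 54 windows, of which 5 held TATAAA, 17 windows held CCAAT, while GGGCGG was found in 32 and CAGAC in 26. A match of letters is a description and not a binding site, and whether these motifs bear on the levels of the genes was not tested.

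Type IV collagen forms the network of basement membranes, and its Col4a1 and Col4a2 genes lie head to head. In the annotation used for counting, their first exons share 22 bases on opposite strands at chr8:11312805-11312826, shown here on the plus strand. The levels of the pair are compared mouse by mouse, and whether the overlap bears on them was not tested.
Col4a1/Col4a2: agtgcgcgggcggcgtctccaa
Col4a1 (chr8:11198423-11312826) measured 78.2, 53.5, 52.8 and 86.7 CPM in the Control mice and 76.7, 58.1, 71.7 and 42.8 CPM in the Mc1r LKO mice. The fitted log2 fold change was -0.12 (SE 0.21, edgeR p = 0.571, exact permutation p = 0.60). Col4a2 (chr8:11312805-11449287) measured 51.0, 35.3, 37.4 and 49.3 CPM in the Control mice and 42.7, 38.3, 41.6 and 21.3 CPM in the Mc1r LKO mice, with a log2 fold change of -0.27 (SE 0.21, edgeR p = 0.229, exact permutation p = 0.314). Mc1r LKO mouse 182 was the lowest for both, and the groups overlapped. Over the 8 mice, log2 CPM of Col4a1 and Col4a2 were correlated with r = 0.90 (exact permutation p = 0.000273) and rho = 0.95 (exact permutation p = 0.00114), and r was 0.88 without mice 182 and 193. Taken as deviations within genotypes (described further on), r was 0.92, and its adjusted exact permutation p of 0.0602 did not pass. Col4a5, found in the kidney filter among other places, had a log2 fold change of 0.39 that turned to -0.13 without Mc1r LKO mouse 156. Col4a3, Col4a4 and Col4a6 had at most 10 counts in a mouse.

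Type VI collagen makes beaded filaments around cells. Col6a1 measured 13.8, 15.3, 11.7 and 18.1 CPM in the Control mice and 18.4, 11.4, 11.9 and 8.23 CPM in the Mc1r LKO mice. The fitted log2 fold change was -0.24 (SE 0.23, edgeR p = 0.308, exact permutation p = 0.457), with Control and Mc1r LKO values interleaved. Col6a3 measured 14.1, 12.0, 10.4 and 18.1 CPM in the Control mice and 15.7, 9.42, 10.5 and 8.53 CPM in the Mc1r LKO mice, and its log2 fold change was -0.32 (SE 0.22, edgeR p = 0.184, exact permutation p = 0.314). Both passed the unadjusted threshold only without Mc1r LKO mouse 141, whose value was the highest of its group (log2 fold changes -0.48 for Col6a1 and -0.52 for Col6a3). Col6a2 was 8.58 ± 3.57 CPM in Control and 8.46 ± 2.19 CPM in Mc1r LKO livers, a log2 fold change of -0.04.

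Collagens that attach to the surface of fibrils were led by Col14a1 (chr15:55307750-55520803), which measured 79.6, 82.2, 79.9 and 112 CPM in the Control mice and 80.8, 70.8, 86.4 and 54.5 CPM in the Mc1r LKO mice. Control mouse 193 was far above the other 3 Control mice, which lay between 79.6 and 82.2 CPM, and Mc1r LKO mouse 182 was the lowest. The log2 fold change was -0.28 (SE 0.16, edgeR p = 0.117, exact permutation p = 0.257). Col12a1 was 6.72 ± 0.835 CPM in Control and 5.42 ± 1.32 CPM in Mc1r LKO livers, with a log2 fold change of -0.31 (SE 0.20, edgeR p = 0.151, exact permutation p = 0.143) that passed the unadjusted threshold only without Mc1r LKO mouse 157 (log2 fold change -0.48). Col16a1 was 5.31 ± 1.52 CPM in Control and 5.01 ± 1.21 CPM in Mc1r LKO livers, a log2 fold change of -0.09. Col20a1 was one of the 2 tested collagens with a higher mean in Mc1r LKO livers, at 0.793 ± 0.322 CPM in Control and 1.09 ± 0.269 CPM in Mc1r LKO livers, a log2 fold change of 0.47 (SE 0.39, edgeR p = 0.255, exact permutation p = 0.200). Its highest count in a mouse was 28.

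Multiplexins are basement membrane collagens with interrupted helices. Col18a1 (chr10:77052178-77166548) measured 926, 915, 990.5 and 976 CPM in the Control mice and 779.8, 912, 879 and 982 CPM in the Mc1r LKO mice. It varied by 1.27-fold from the lowest to the highest mouse, the narrowest range of the 50 genes, and Mc1r LKO mouse 182, lowest for many collagens, had the second highest value. The means were 952 ± 36.9 CPM in Control and 888 ± 84.1 CPM in Mc1r LKO livers, and the log2 fold change of -0.10 (SE 0.10, edgeR p = 0.323, exact permutation p = 0.200) had a 95% interval of -0.31 to 0.11. Col15a1 measured 17.8, 9.20, 14.8 and 7.71 CPM in the Control mice and 7.95, 14.8, 10.8 and 12.7 CPM in the Mc1r LKO mice, and its log2 fold change was -0.10 (SE 0.28, edgeR p = 0.713, exact permutation p = 0.800). Col13a1, a transmembrane collagen, was 4.64 ± 0.568 CPM in Control and 4.01 ± 0.645 CPM in Mc1r LKO livers (log2 fold change -0.22), and the network-forming Col8a1 was 1.30 ± 0.429 CPM in Control and 1.06 ± 0.526 CPM in Mc1r LKO livers (log2 fold change -0.32), both with overlapping groups. Among collagens below the testing filter, Col28a1 had between 0 and 9 counts per mouse, with 0.101 to 0.389 CPM in Control mice and 0 to 0.0657 CPM in Mc1r LKO mice. It had 18 counts over all mice. The 0 counts of Mc1r LKO mice 141 and 182 allow up to 0.211 and 0.140 CPM, which lies within the Control range.

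Lysyl oxidases oxidise lysines of collagen and elastin so that the fibres become cross-linked, and all 5 were tested. Lox measured 1.17, 0.186, 0.521 and 1.51 CPM in the Control mice and 1.59, 0.650, 0.767 and 0.818 CPM in the Mc1r LKO mice. These are low levels, with at most 37 counts in a mouse, and the log2 fold change of 0.09 (SE 0.54, edgeR p = 0.874, exact permutation p = 0.771) had a 95% interval of -1.12 to 1.29. Loxl1 measured 2.87, 1.86, 1.46 and 5.22 CPM in the Control mice and 4.42, 1.82, 2.34 and 2.25 CPM in the Mc1r LKO mice, and its log2 fold change was -0.11 (SE 0.42, edgeR p = 0.803, exact permutation p = 0.829). Control mouse 193 and Mc1r LKO mouse 141 were the highest of their groups for Loxl1 as for Lox. The other 3, Loxl2, Loxl3 and Loxl4, had log2 fold changes of -0.08, -0.07 and 0.25. Summed over the 5 genes, the level was 13.8, 10.4, 8.81 and 18.3 CPM in the Control mice and 18.2, 11.2, 12.0 and 8.94 CPM in the Mc1r LKO mice.

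Timp1, an inhibitor that is induced in injured liver, was low and varied widely within each genotype. It measured 1.28, 1.58, 0.313 and 2.32 CPM in the Control mice and 1.59, 1.04, 2.38 and 0.153 CPM in the Mc1r LKO mice. Control mouse 181 and Mc1r LKO mouse 182 had the 2 lowest values, a range of 15.6-fold over all mice, and the log2 fold change of -0.08 (SE 0.69, edgeR p = 0.911, exact permutation p = 0.857) had a 95% interval of -1.61 to 1.46. Timp2, which also takes part in activating the gelatinase Mmp2, measured 13.8, 10.2, 12.9 and 15.6 CPM in the Control mice and 21.4, 10.6, 15.4 and 13.6 CPM in the Mc1r LKO mice. Mc1r LKO mouse 141 was the highest, and the log2 fold change was 0.21 (SE 0.21, edgeR p = 0.343, exact permutation p = 0.457). Timp3, the inhibitor that binds to the matrix, measured 26.5, 23.4, 23.6 and 29.1 CPM in the Control mice and 34.7, 27.6, 26.4 and 18.9 CPM in the Mc1r LKO mice, with a log2 fold change of 0.06 (SE 0.17, edgeR p = 0.712, exact permutation p = 0.743). No Timp gene passed the unadjusted threshold.

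All 11 laminin chains were tested, 9 with a lower and 2 with a higher mean in Mc1r LKO livers and a median log2 fold change of -0.19, and 0 passed the unadjusted threshold. Lamc1, the gamma chain of most laminins, measured 30.8, 22.5, 22.8 and 23.9 CPM in the Control mice and 29.5, 26.3, 28.1 and 14.7 CPM in the Mc1r LKO mice. The fitted log2 fold change was -0.02 (SE 0.20, edgeR p = 0.914, exact permutation p = 0.943), and Mc1r LKO mouse 182 lay below all others. Lamb1, the usual beta chain partner, measured 12.1, 10.2, 10.4 and 14.3 CPM in the Control mice and 13.8, 11.1, 13.2 and 8.02 CPM in the Mc1r LKO mice, with a log2 fold change of -0.04 (SE 0.19, edgeR p = 0.848, exact permutation p = 0.914). Lama1, Lama2, Lama4 and Lama5 had log2 fold changes of -0.25, -0.29, -0.20 and -0.28, and Lama3 one of -0.19. Lama3 and Lamb3, both chains of epithelial laminins, were highest in Mc1r LKO mouse 182, at 2.71 and 17.3 CPM. Lamb2 and Lamc3 had log2 fold changes of 0.07 and 0.38, which were negative with limma-voom.

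Of the 6 stellate cell identity genes 2 had a higher and 4 a lower mean in Mc1r LKO livers, with a median log2 fold change of -0.03, and 0 passed the unadjusted threshold in edgeR. Lrat (chr3:82892579-82903973) measured 28.4, 27.1, 16.5 and 39.4 CPM in the Control mice and 26.2, 27.2, 30.0 and 12.2 CPM in the Mc1r LKO mice. The highest was Control mouse 193 and the lowest Mc1r LKO mouse 182, and the log2 fold change was -0.23 (SE 0.30, edgeR p = 0.466, exact permutation p = 0.543). Des, the intermediate filament desmin, measured 6.70, 6.32, 4.38 and 6.08 CPM in the Control mice and 5.88, 6.56, 5.33 and 5.47 CPM in the Mc1r LKO mice. The spread was small, and the log2 fold change of -0.01 (SE 0.18, edgeR p = 0.936, exact permutation p = 0.943) had a 95% interval of -0.41 to 0.38. Pdgfrb (chr18:61045150-61085061), the receptor through which PDGF drives stellate cell growth, measured 14.4, 14.5, 9.69 and 17.4 CPM in the Control mice and 15.1, 12.3, 13.1 and 7.21 CPM in the Mc1r LKO mice. The fitted log2 fold change was -0.24 (SE 0.23, edgeR p = 0.336, exact permutation p = 0.429). Reln, the secreted glycoprotein reelin, measured 55.2, 33.4, 46.2 and 56.1 CPM in the Control mice and 58.5, 47.1, 52.9 and 36.7 CPM in the Mc1r LKO mice, with a log2 fold change of 0.03 (SE 0.18, edgeR p = 0.885, exact permutation p = 0.800).

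Dcn and its neighbour Lum, which lies 47.0 kb away on the same strand, code for small leucine-rich proteoglycans that regulate fibril growth. Dcn (chr10:97479609-97518143) measured 149.7, 174, 124 and 202 CPM in the Control mice and 206, 147, 177 and 124 CPM in the Mc1r LKO mice. The means were 162 ± 33.1 CPM in Control and 163 ± 35.8 CPM in Mc1r LKO livers, and the log2 fold change of 0.01 (SE 0.18, edgeR p = 0.962, exact permutation p = 0.914) had a 95% interval of -0.39 to 0.41. With counts scaled by library size alone, the log2 fold changes of Dcn and Reln were -0.03 and -0.01. Lum (chr10:97565128-97572703) measured 8.77, 7.07, 4.90 and 12.8 CPM in the Control mice and 12.2, 6.30, 7.43 and 7.0 CPM in the Mc1r LKO mice, with a log2 fold change of -0.04 (SE 0.30, edgeR p = 0.889, exact permutation p = 0.914). Control mouse 193 and Mc1r LKO mouse 141 were the highest of their groups for both genes. Summed over the 6 identity genes, the level was 263, 262, 206 and 334 CPM in the Control mice and 324, 246, 286 and 192 CPM in the Mc1r LKO mice. The 14 further stellate and fibroblast markers summed to 185 to 248 CPM in Control and 174 to 246 CPM in Mc1r LKO mice, and 0 of the 13 tested passed the unadjusted threshold.

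Acta2, Tgfb1 and Ccn2, which accompany stellate cell activation, were measured in bulk liver tissue, so the cells that gave these reads were not resolved. Acta2 (chr19:34241090-34255590), the smooth muscle actin of activated stellate cells and vessel walls, measured 4.68, 4.18, 6.25 and 8.03 CPM in the Control mice and 5.81, 8.19, 5.49 and 9.91 CPM in the Mc1r LKO mice. The highest value was that of Mc1r LKO mouse 182, and the log2 fold change was 0.33 (SE 0.26, edgeR p = 0.230, exact permutation p = 0.286). Tgfb1, the main profibrotic cytokine, measured 12.9, 14.7, 8.75 and 14.3 CPM in the Control mice and 11.6, 11.9, 11 and 5.47 CPM in the Mc1r LKO mice. Mc1r LKO mouse 182 lay far below the others of its group, and the log2 fold change was -0.34 (SE 0.25, edgeR p = 0.202, exact permutation p = 0.257). Neither gene passed the unadjusted threshold.

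Ccn2 (chr10:24595442-24598683), also known as connective tissue growth factor, is a matricellular protein and a target of TGF-beta and of the YAP pathway. It measured 12.0, 5.39, 10.5 and 7.17 CPM in the Control mice and 16.8, 14.6, 10.6 and 14.9 CPM in the Mc1r LKO mice. Of the Mc1r LKO mice 3 lay above all Control mice, while Mc1r LKO mouse 157 lay between Control mice 181 and 154. The means were 8.78 ± 3.03 CPM in Control and 14.2 ± 2.60 CPM in Mc1r LKO livers, a log2 fold change of 0.68 (SE 0.24, edgeR p = 0.0171, exact permutation p = 0.0571) with a 95% interval of 0.15 to 1.22. The gene kept its unadjusted call in each of the 8 fits that left out 1 mouse, where the log2 fold change lay between 0.53 and 0.87. The correlation of Ccn2 with Acta2 over the 8 mice did not pass the test (r = 0.43, exact permutation p = 0.290, and rho = 0.43, exact permutation p = 0.299), and r was -0.26 without mice 159 and 182.

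**Figure D4:**
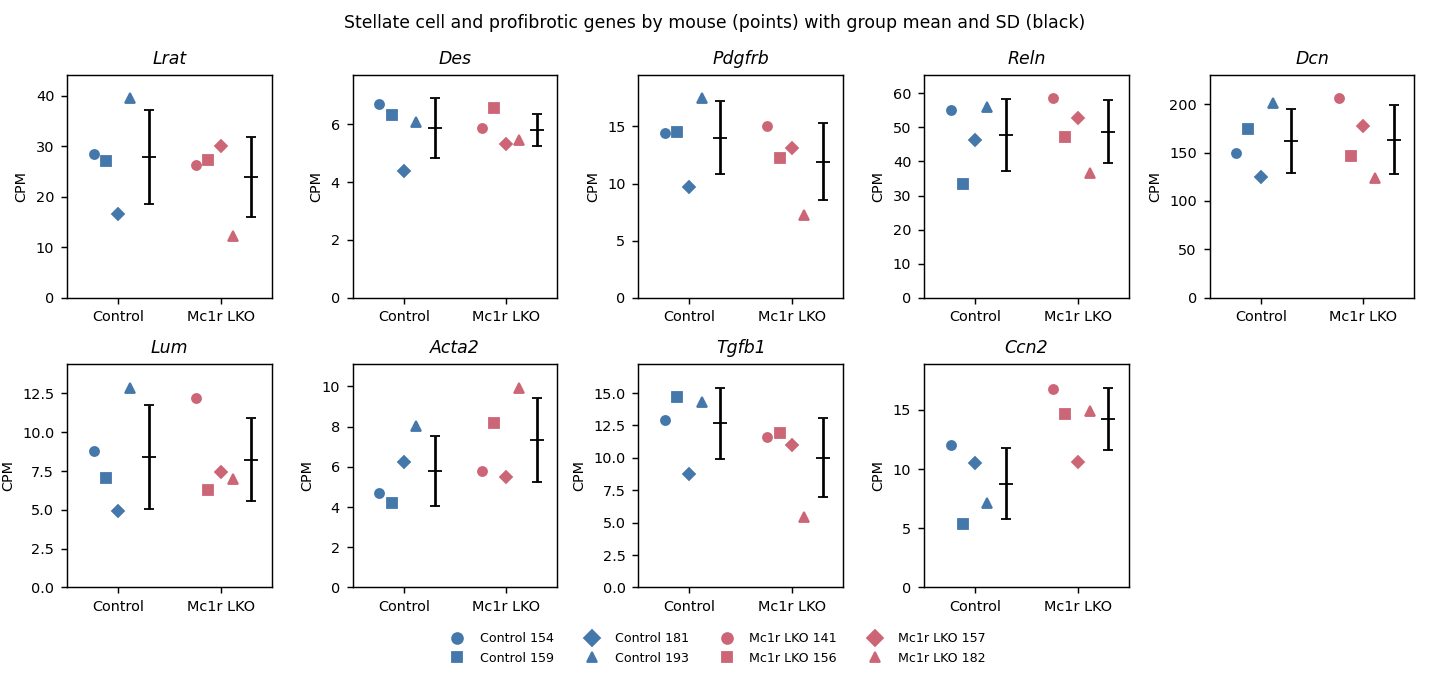
CPM of the 6 stellate cell identity genes and of Acta2, Tgfb1 and Ccn2 in each liver, with the group mean and SD in black. Points of both genotypes overlap in every panel, and for Ccn2 only Mc1r LKO mouse 157, at 10.6 CPM, lies within the Control range of 5.39 to 12.0 CPM.

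Differences between single mice ran through many of the genes. Of the 50 genes, 20 had their highest CPM in Control mouse 193 and 26 their lowest in Mc1r LKO mouse 182, and the median difference from the mean of the 8 mice on the log2(CPM + 0.5) scale was 0.34 and -0.41 in these mice. Mc1r LKO mouse 141 was the highest for 10 genes, with a median difference of 0.27. Log2 CPM of Col1a1 was compared with that of each of the other 49 genes over the 8 mice, and 52 relations were computed in all. After Benjamini-Hochberg adjustment over the 52, Pearson's r passed an exact permutation p of 0.05 for 12 of the 49 genes, all with a positive r. The closest was Col1a2 (r = 0.99, exact permutation p = 7.44e-05, adjusted 0.00193, and rho = 0.98, exact permutation p = 0.000397, adjusted 0.00688), followed by Col16a1 (r = 0.98), Lrat (r = 0.96), Col3a1 (r = 0.95), Pdgfrb (r = 0.92), Col5a1 (r = 0.90) and Timp1 (r = 0.90). By rank, 4 of the 12 did not pass after adjustment. These were Lrat (rho = 0.69, exact permutation p = 0.0694, adjusted 0.139), Timp1 (rho = 0.64, exact permutation p = 0.0962, adjusted 0.172), Pdgfrb (rho = 0.83, exact permutation p = 0.0154, adjusted 0.0533) and Dcn (rho = 0.79, exact permutation p = 0.0279, adjusted 0.0764). Without mice 181 and 182, which were farthest from the median of Col1a1, r stayed above 0.9 for Col1a2, Col16a1 and Lrat, was 0.895 for Col3a1 and fell to 0.48 for Timp1 and 0.51 for Dcn, whose relations rest on those mice. The mice left still included Control mouse 193, at 58.2 CPM of Col1a1 against 27.1 to 34.4 CPM in the rest. An r that stayed high can therefore rest on mouse 193, and r without it as well was not computed. Of the 49 genes, 11 had a negative r, among them Col5a3 (r = -0.45, exact permutation p = 0.268), Col18a1 (r = -0.36, exact permutation p = 0.367), Ccn2 (r = -0.26, exact permutation p = 0.539) and Acta2 (r = -0.17, exact permutation p = 0.669). Without mice 181 and 182, r was -0.41 for Col5a3 and -0.13 for Ccn2, and it was positive for Col18a1 (r = 0.38) and Acta2 (r = 0.67). Col1a1 was not related to the total count of the library (r = -0.03, exact permutation p = 0.940). Each value was also taken as its deviation from the mean of its genotype, with exact permutation over the 576 orders of the mice within genotypes, a test chosen after seeing the data. The 12 genes then had r between 0.84 and 0.998, and 4 of them passed after adjustment over the 52 relations (Col1a2, Col16a1, Col3a1 and Col4a1, each with an adjusted exact permutation p of 0.0451), while the highest adjusted p of the other 8 was 0.0722. All 4 tied at an unadjusted exact permutation p of 0.00347 and passed through that tie. With 576 orders and 52 relations no gene could have passed alone, so passing does not set these 4 apart from the other 8.

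**Figure D5:**
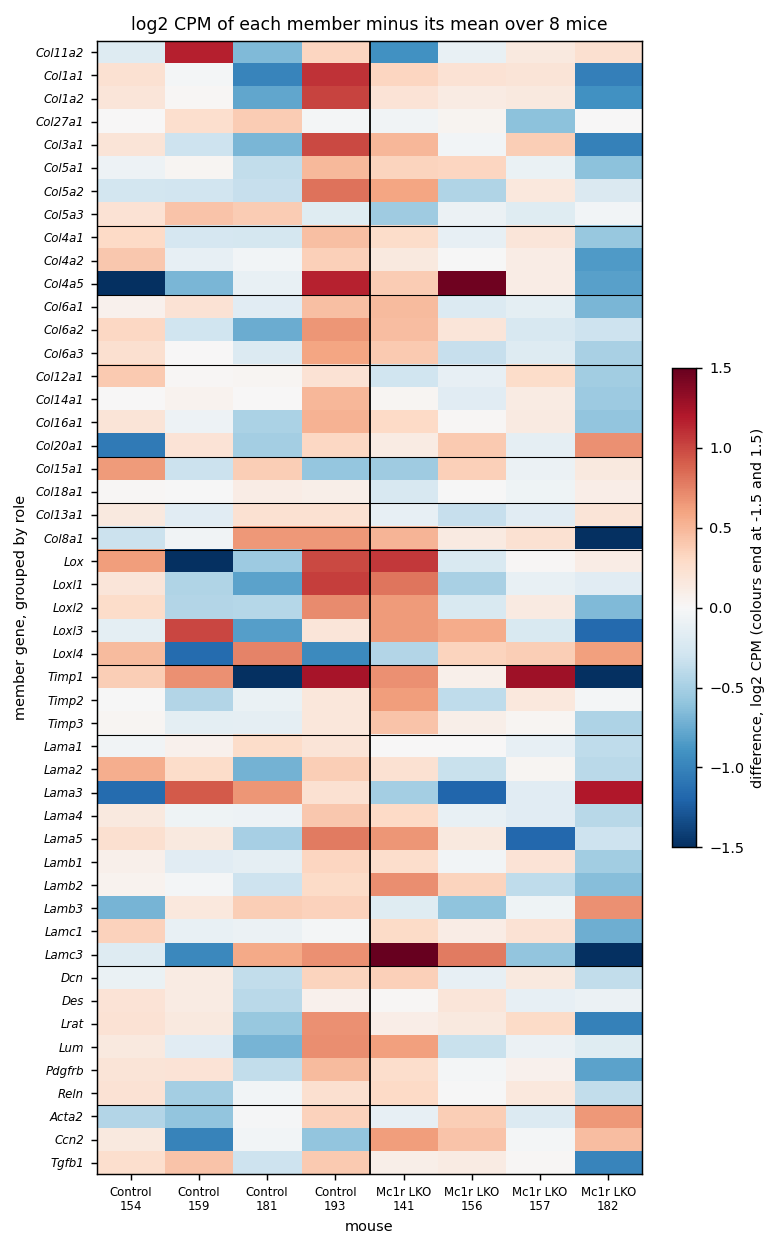
Log2 CPM of 49 of the 50 genes in each mouse minus the mean of the gene over the 8 mice, with genes grouped by role and colours ending at -1.5 and 1.5. The column of Control mouse 193 is mostly red and that of Mc1r LKO mouse 182 mostly blue, and neither genotype has a colour of its own.

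Markers of other cells also differed between mice. The 11 sinusoidal endothelial markers summed to 417, 438, 342 and 386 CPM in the Control mice and 404, 389, 376 and 267 CPM in the Mc1r LKO mice. The 8 macrophage markers summed to 309, 657, 275 and 435 CPM in the Control mice and 270.3, 403, 296 and 189.7 CPM in the Mc1r LKO mice, and the 7 cholangiocyte markers to 127, 109, 77.0 and 165 CPM in the Control mice and 271, 134, 148 and 42.5 CPM in the Mc1r LKO mice. Mc1r LKO mouse 182 was the lowest for each of these 3 lists and had the highest sum of the 7 smooth muscle markers, 24, 22.0, 27.7 and 26.0 CPM in the Control mice and 28.1, 29.4, 22.5 and 40.4 CPM in the Mc1r LKO mice. Most of the cholangiocyte sum in the other mice was Spp1, at 49.1 to 239 CPM against 16.8 CPM in mouse 182. The other markers of that list did not all follow, and Sox9 was highest in mouse 182, at 9.96 CPM. The 5 mesothelial markers, 0 of which could be tested, summed to 5.44 CPM in Mc1r LKO mouse 182 and to at most 0.959 CPM in the other mice. Of the tested markers, all 8 of macrophages had a lower mean in Mc1r LKO livers (median log2 fold change -0.44), as did 9 of 11 of endothelial cells (median -0.15), while 4 of 5 of cholangiocytes (median 0.36) and 3 of 4 of smooth muscle (median 0.38) had a higher mean. Among all 13400 genes tested, 6412 were higher and 6988 lower. Single mice weighed on such means, as Spp1 was highest in Mc1r LKO mouse 141 (239 CPM) and Sox9 in mouse 182. In these 4 lists 0 markers passed the adjusted threshold, and the unadjusted threshold was passed by 1 macrophage marker (Csf1r, lower) and 1 smooth muscle marker (Tagln, higher), against the backgrounds of 2.66% and 2.64% of all genes. Csf1r (edgeR p = 0.0375, exact permutation p = 0.229) was highest in Control mouse 159, at 114 CPM. Tagln (edgeR p = 0.0346, exact permutation p = 0.0571) was highest in Mc1r LKO mouse 182, at 25.5 CPM. Of the 9 hepatocyte markers, 1 was higher (Tat) and 1 lower (Cyp3a11) at the unadjusted threshold, against the same backgrounds, and 0 passed the adjusted threshold. Cyp3a11 was lowest in Mc1r LKO mouse 182, at 1246 CPM. No marker of these lists was at 0 in all 8 mice. The part of these differences in the values of the matrix genes was not tested.

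Genes that act with the collagens were read from lists of their modifying enzymes, proteases, partner proteins, signals and receptors. Of 134 such genes 113 were tested, 40 with a higher and 73 with a lower mean in Mc1r LKO livers and a median log2 fold change of -0.07, and 0 passed the adjusted threshold. At the unadjusted threshold 0 were higher and 3 were lower, against backgrounds of 2.64% and 2.66% of all genes. Adamts1, a secreted metalloproteinase that cleaves proteoglycans, measured 23.0, 15.5, 17.4 and 17.4 CPM in the Control mice and 11.8, 12.6, 14.3 and 15.2 CPM in the Mc1r LKO mice, with all Mc1r LKO mice below all Control mice, as in 1.54% of all genes, and its log2 fold change was -0.44 (SE 0.14, edgeR p = 0.0109, exact permutation p = 0.0286). Itga9, an integrin chain, was 21.1 ± 2.85 CPM in Control and 15.8 ± 3.14 CPM in Mc1r LKO livers, a log2 fold change of -0.41 (SE 0.16, edgeR p = 0.0236, exact permutation p = 0.0571), and Prelp, a leucine-rich matrix proteoglycan, was 54.6 ± 7.92 CPM in Control and 44.1 ± 6.61 CPM in Mc1r LKO livers, a log2 fold change of -0.31 (SE 0.14, edgeR p = 0.0445, exact permutation p = 0.114). None of the 21 genes tested for collagen folding and processing and none of the 19 for TGF-beta and PDGF signalling passed the unadjusted threshold in edgeR.

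The precision of these comparisons is given by their intervals. The 95% interval of the log2 fold change reached a median of 0.59 to each side for the 50 genes, against 0.36 for all genes tested, and for 16 of the 50 genes it extended beyond a change of 1 on the log2 scale in at least 1 direction. The differences that did not pass the test are therefore not shown to be absent.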

How the data were processed

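RNA was sequenced from the livers of 8 mice with a stranded mRNA kit, and the groups and mouse numbers were taken from the sample labels. The authors trimmed reads with Trim Galore 0.6.6, aligned them to GRCm38 with STAR 2.7.6a and assigned them to Ensembl genes with featureCounts (Subread 2.0.1) by strand. The deposited values are raw counts, in whole read pairs for every gene, with no normalization. Reads shared by overlapping genes of a strand can be lost in such counting.

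From these counts, genes were filtered with filterByExpr (minimum count 10, minimum total 15), scaled by TMM and fitted with edgeR 4.0.16 in R 4.3.3 (glmQLFit, then glmQLFTest). P-values of the 13400 genes were adjusted after Benjamini and Hochberg. The study's methods name this filter and normalization, and the test its software ran is not named there. CPM use TMM factors for tested genes and the total count alone for the others, and intervals for 3 counts cover counting error only. Single values were compared by two-sided exact permutation over the 70 labellings (smallest p 0.0286), and correlations over the 40320 orders of the mice with scipy (and, chosen after seeing the data, over the 576 orders within genotypes). The fit was checked on simulated counts. Depth ranged from 10773151 to 24763375 counts per mouse.

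Every gene of the list could be named, 28 were described in each mouse (27 from a set list, and Col5a3 for its unadjusted p), and pathway genes were named where they passed the unadjusted threshold. Of the 50 genes tested, 1 enters the counts and sums but is otherwise not reported here. The genes and lists were chosen with earlier results of these data known. Alternatives were DESeq2 1.42.0, limma 3.58.1 (voom), a robust fit, other scalings and filters, and leaving out each mouse. Mouse numbers are not shared between genotypes. No paired analysis was possible because the groups share no replicate number. Coordinates are those of the count tables, and promoter sequences are from RefSeq (GRCm38.p6).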

Additional observations from a re-analysis of the deposited data

Results flagged for a closer look

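In each group of 4 mice, the gap between the highest or lowest mouse and its nearest neighbour was set against the range of the group by Dixon's test at 95%. Of 124 groups checked, over 49 genes and the sums of the roles, 8 had such a mouse, and chance gives about 1 in 20, or 6.20. Among Control mice, mouse 193 was set apart for Col14a1 (112 CPM, the next value being 82.2), for the summed fibril-associated collagens, which Col14a1 dominates (127 CPM, next 94.3), and for Col5a2 (10.0 CPM, next 4.68), and mouse 154 for Lamc1 (30.8 CPM, next 23.9). Among Mc1r LKO mice, mouse 182 lay below the others for Col1a1 (13.5 CPM, next 31.6), Col1a2 (17.4 CPM, next 35.5) and Tgfb1 (5.47 CPM, next 11). Mouse 157 was the lowest for Col27a1 (29.0 CPM, next 42.8).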

How the results depend on the processing

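The number of these genes past an adjusted p of 0.05 in edgeR was 0 in every one of the 15 alternatives, DESeq2 and limma-voom included. The number past the unadjusted threshold was 2 or 3 under the other scalings, filters and tools, and 1 to 4 when single mice were left out. Among all genes tested, this number lay between 655 of 11954 and 1140 of 24087 under the other scalings, filters and tools. When single mice were left out, it lay between 606 of 13577 and 931 of 13674. The number without overlap between the genotypes was 1 with counts scaled by library size alone and 1 with no filter beyond 1 count, and 0 to 2 without single mice. The share of all genes without overlap was not computed for these alternatives, and with fewer mice any gene reaches it more easily. The median log2 fold change of the tested genes lay between -0.15 and -0.09 under other scalings and filters, and between -0.23 and 0.02 when single mice were left out, with 0.02 in the fit lacking Control mouse 193 and 0.01 in the fit lacking Mc1r LKO mouse 182. The log2 ratio of the collagen sum kept its direction in every alternative tried, at -0.19 to -0.09. With counts scaled by library size alone, single mice of the genotypes would overlap in this sum. Single genes changed sign in 73 of 740 comparisons with an alternative, none of them past a threshold, and the cause was not tested. Outside the fits that left out a mouse these were Dcn (-0.032) and Reln (-0.013) with library size alone and Lamb2 (-0.11) and Lamc3 (-0.32) with limma-voom. When single mice were left out, 28 genes changed sign. Among the collagens, log2 fold changes that crossed 0 ranged from -0.57 to 0.041 for Col11a2, from -0.28 to 0.13 for Col15a1, from -0.25 to 0.10 for Col16a1, from -0.50 to 0.20 for Col1a1, from -0.52 to 0.10 for Col1a2, from -0.33 to 0.29 for Col3a1, from -0.23 to 0.025 for Col4a1, from -0.13 to 1.14 for Col4a5, from -0.14 to 0.17 for Col5a1, from -0.21 to 0.39 for Col5a2 and from -0.24 to 0.24 for Col6a2. Among the lysyl oxidases and inhibitors, log2 fold changes that crossed 0 ranged from -0.23 to 0.53 for Lox, from -0.42 to 0.38 for Loxl1, from -0.33 to 0.20 for Loxl2, from -0.30 to 0.30 for Loxl3, from -0.59 to 0.35 for Timp1 and from -0.076 to 0.20 for Timp3. Among the laminin chains, log2 fold changes that crossed 0 ranged from -0.85 to 0.057 for Lama3, from -0.12 to 0.11 for Lamb1, from -0.19 to 0.25 for Lamb2, from -0.36 to 0.10 for Lamb3, from -0.11 to 0.17 for Lamc1 and from -0.45 to 0.75 for Lamc3. Among the stellate cell genes, log2 fold changes that crossed 0 ranged from -0.11 to 0.14 for Dcn, from -0.13 to 0.062 for Des, from -0.41 to 0.0032 for Lrat, from -0.28 to 0.25 for Lum and from -0.10 to 0.15 for Reln. Lox, Col20a1 and Timp1 had at most 59 counts in a mouse, and each group had 4 mice. All values come from bulk liver of males on 1 diet.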
